A study of Rattus norvegicus with 8 samples.

Results

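Collagens and the matrix proteins of fibroblasts were followed through cultures of embryonic rat sensory neurons and through the axons grown from them. The set holds 39 of 17379 genes. It comprises the 27 collagen chain genes whose symbols stand in the authors' deposited somatic comparison table, together with Fn1, Sparc, Dcn, Lum, Fbln1, Fbln2, Postn, Vtn, Islr, Pxdn, Pdgfra and Pdgfrb. A transcript was matched for 33 of the 39, with 1 transcript each. Col4a3, Col5a2, Col6a4, Col17a1 and Col27a1 could be read only from the authors' deposited tables, and Fbln2 was not analysed here.

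Dorsal root ganglion neurons of rat embryos at day 15 (E15) were kept for 7 days in microfluidic chambers, in which axons grow into a compartment apart from the cell bodies. All cultures received a lentivirus when plated, carrying either a control hairpin RNA (shControl) or a hairpin against Pum2 (shPum2), which encodes an RNA-binding protein of the Pumilio family. RNA of the somatic compartment, whose labelled source is cell bodies and axons, and RNA of the axonal compartment were each sequenced in 2 libraries per hairpin, which gives 8 libraries in 4 groups. A standard kit served for somatic RNA and an ultra-low input kit for axonal RNA, so kit and compartment cannot be told apart, and the labels do not say whether replicates came from separate cultures, so p-values measure only the spread between these samples.

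Collagens are triple-helical proteins built from chains that assemble in the endoplasmic reticulum and are secreted. Types I, III and V form the fibrils of connective tissue, type IV forms the sheet of basement membranes, and other types link, anchor or span these structures. In the ganglion and the peripheral nerve, fibroblasts of the connective tissue sheaths and Schwann cells are known as main sources of matrix, and fibronectin and periostin are among the proteins that connect matrix to cells.

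The libraries held between 11641980 and 25821800 estimated counts, with the axonal ones at 11641980 to 16131627. Pum2 itself stood at 164 and 160 CPM (counts scaled to a library total of 1000000) in the somatic shControl libraries and at 38.2 and 36.5 CPM in the somatic shPum2 libraries, a log2 difference of -2.13 (SE 0.07, edgeR quasi-likelihood adjusted p = 0.0247). In the axonal libraries Pum2 was at 3.25 and 0.443 CPM under shControl against 1.46 and 7.07 CPM under shPum2, which overlap. Neuronal markers were high in every library, with a sum over 9 genes of 28500 to 33300 CPM in soma and 16500 to 31800 CPM in axons. Markers of fibroblasts and mesenchyme that are not members of the set (10 matched genes) summed to 43.5 to 193 CPM in soma, with Tcf21 at 0 throughout, and to 5.63 to 13.7 CPM in axons, with 3 or 4 genes at 0 per library (Tcf21 in all 4, Osr2 in all 4).

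The RefSeq promoter table (assembly GRCr8) holds 30 of the 39 members. Those of the 8 most abundant members that it lists are printed here. In soma these 4 genes had the order of libraries of 27 of 31 members, with shPum2 replicate 1 highest and shControl replicate 1 next. Of the 4, Col1a2 alone had this order in axons too, by a narrow margin (37.9 against 37.4 CPM, where CPM is as defined above). Each sequence is the 250 bases before the listed start, 5′ to 3′ on the gene's strand. Capitals mark the letters of the TATA box (TATAAA), the CCAAT box and the GC box (GGGCGG) on either strand, and the motifs were searched without regard to overlap. Sparc lies at chr10:40038817-40039066 (minus strand), Col1a2 at chr4:33518307-33518556 (plus strand), Col4a1 at chr16:84885347-84885596 (plus strand) and Col18a1 at chr20:11473395-11473644 (plus strand).
Sparc: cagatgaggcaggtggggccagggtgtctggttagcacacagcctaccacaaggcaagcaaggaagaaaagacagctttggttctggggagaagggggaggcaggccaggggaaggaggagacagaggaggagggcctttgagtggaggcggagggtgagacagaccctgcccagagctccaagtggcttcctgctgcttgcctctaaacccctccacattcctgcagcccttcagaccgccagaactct
Col1a2: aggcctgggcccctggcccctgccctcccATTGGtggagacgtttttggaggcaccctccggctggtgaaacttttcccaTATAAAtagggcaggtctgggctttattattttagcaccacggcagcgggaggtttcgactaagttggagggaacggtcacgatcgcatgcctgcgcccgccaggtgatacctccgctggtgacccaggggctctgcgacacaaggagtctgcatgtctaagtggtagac
Col4a1: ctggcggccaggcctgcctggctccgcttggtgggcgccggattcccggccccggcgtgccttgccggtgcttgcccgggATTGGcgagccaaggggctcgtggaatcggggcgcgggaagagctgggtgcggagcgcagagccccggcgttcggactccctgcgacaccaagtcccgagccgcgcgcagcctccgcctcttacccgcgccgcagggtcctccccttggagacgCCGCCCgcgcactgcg
Col18a1: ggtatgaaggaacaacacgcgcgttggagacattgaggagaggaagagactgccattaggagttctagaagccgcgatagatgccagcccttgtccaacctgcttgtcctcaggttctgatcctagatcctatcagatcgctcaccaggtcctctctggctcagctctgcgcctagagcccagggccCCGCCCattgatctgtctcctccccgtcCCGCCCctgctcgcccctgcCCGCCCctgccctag

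The Sparc window held none of the 3 motifs. The Col1a2 window held TATAAA 170 bases before the listed start and CCAAT on the opposite strand 221 bases before it. The Col4a1 window held CCAAT (at 170 bases) and GGGCGG (at 16 bases), both on the opposite strand, and the Col18a1 window held GGGCGG on the opposite strand at 63, 35 and 15 bases. Over the 30 members with a window, GGGCGG was present in 15 (50%), against 32.4% of 27457 promoters. CCAAT was present in 8 (26.7% against 34.3%) and TATAAA in 4 (13.3% against 13.1%), of which none lay on the gene strand 20 to 40 bases before the start (1.52% of all promoters). Median GC content was 59.8% in the members' windows and 52% in all.

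The members made up 0.54% and 0.29% of all counts in the somatic shControl libraries (replicates 1 and 2) and 1.27% and 0.289% in the somatic shPum2 libraries. The high library was thus shPum2 replicate 1, followed by shControl replicate 1, with both second replicates at the same level, and the hairpin groups overlapped. In each somatic library 31 of the 33 matched members had at least 10 counts. On the TPM scale, which corrects for transcript length, the most abundant member was Col3a1, the chain of type III fibrils found beside type I in soft tissue, with a mean somatic level of 487 TPM and a range of 188 to 1170. Sparc, a collagen-binding glycoprotein, followed at a mean of 402 TPM and was below Col3a1 in 3 of 4 libraries. Col1a1 and Col1a2, the chains of type I collagen, had mean levels of 272 and 185 TPM, and fibronectin (Fn1) 167 TPM. Each of Sparc, Col1a1, Col1a2 and Fn1 was above the next in all 4 libraries.

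Below these 5 the order was less fixed. Col4a1, a basement membrane chain, averaged 109 TPM and Col6a2, a chain of beaded filaments, 105 TPM, and each was the higher in 2 of 4 libraries. Col18a1, whose C-terminal fragment is endostatin, averaged 82 TPM, periostin (Postn) 77.8, Col5a1 72.1 and Col5a3 58.7 TPM, where Col5 chains belong to the minor fibrillar type V. Col8a1 had 36.1 TPM, peroxidasin (Pxdn), which cross-links type IV collagen, 28.4, and the PDGF receptor gene Pdgfrb, a mark of mural cells and fibroblasts, 26.5. The proteoglycans lumican (Lum) and decorin (Dcn), which regulate fibril width, had 22.8 and 15.9 TPM. The lowest members were Col4a4 and Col9a1, at mean levels of 0.174 and 0.0952 TPM.

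**Figure D1:**
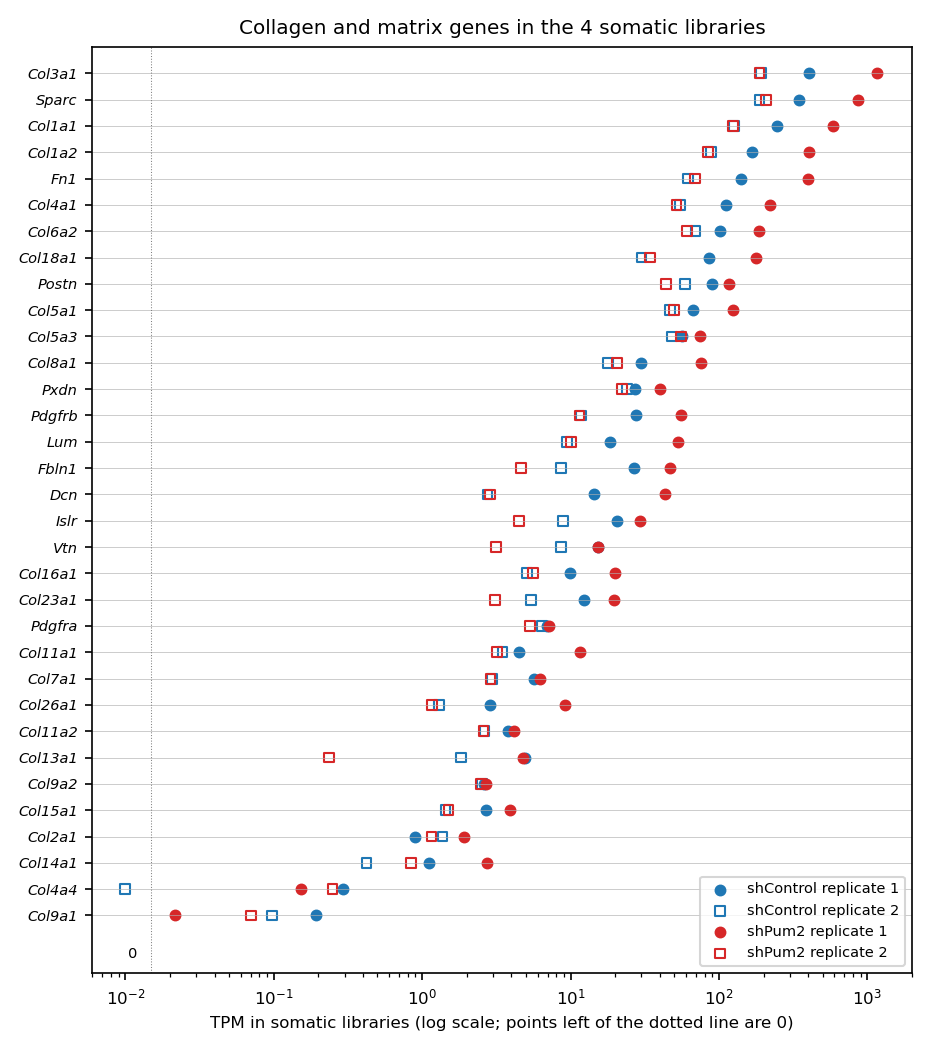
TPM (log axis) of each matched member in the 4 somatic libraries, with genes ordered by mean level and 1 point per library; colour gives the hairpin and symbol the replicate. Points of shPum2 replicate 1 lie farthest right for most members, while Col9a2 and Pdgfra show little spread.

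The main pattern in the somatic libraries was a difference between the replicates of each group. Col1a1 was at 836 and 434 CPM in the shControl libraries and at 1999 and 427 CPM in the shPum2 libraries. Col3a1 was at 1109 and 537 CPM under shControl against 3221 and 524 CPM under shPum2. Fn1 was at 681 and 305 CPM under shControl against 1933 and 341 CPM under shPum2. In all 3, shPum2 replicate 1 stood above every other library and both second replicates were within a narrow band, so the hairpin groups overlapped.

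The 31 members with a mean of at least 10 somatic counts largely shared this order. The level was highest in shPum2 replicate 1 for 29 of them (93.5%), against 40.7% of 12269 genes under the same limit. The full order, shPum2 replicate 1, then shControl replicate 1, then both second replicates, held for 27 of 31 (87.1%), against 26.8% of 12268 genes. Col2a1, Col5a3, Col13a1 and Vtn did not have it. The fold of replicate 1 over replicate 2 within shControl had a median of 1.89 over the members (0.643 to 5.18, above 1 in 30 of 31), where all genes had a median of 1.03. Within shPum2 the median was 4.14 (1.07 to 19.9, above 1 in all 31 and above 2 in 25), where all genes had 1.04. These are single libraries, so no test was made of them.

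**Figure D2:**
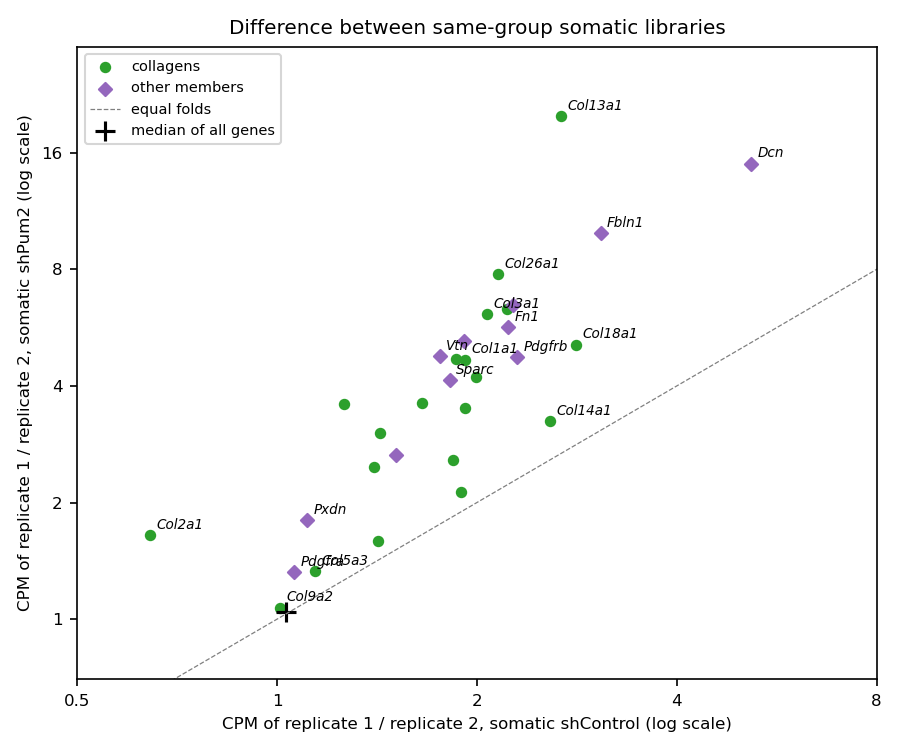
Fold of replicate 1 over replicate 2 in CPM for each of 31 members, in somatic shControl (x axis, log scale) and somatic shPum2 (y axis, log scale); the dashed line marks equal folds and the separate symbol the median over all genes. Most members lie above the line, from Col9a2 near 1 to Col13a1 at 19.9 in shPum2.

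Decorin had the widest shControl difference, at 12.7 and 2.46 CPM, and stood at 38.4 and 2.56 CPM under shPum2. The PDGF receptors differed from each other. Pdgfrb was at 85.9 and 37.3 CPM under shControl against 173 and 36.4 CPM under shPum2. Pdgfra, a mark of fibroblasts and of glial progenitors, was at 26.1 and 24.6 CPM under shControl against 27.1 and 20.5 CPM under shPum2, a fold of 1.34 between its highest and lowest library. The TPM ratio of Pdgfrb to Pdgfra was therefore 4 and 1.84 with shControl and 7.75 and 2.15 with shPum2. Col9a2, a chain of the fibril-associated type IX best known from cartilage, was the steadiest member, at 4.31 and 4.27 CPM under shControl against 4.52 and 4.22 CPM under shPum2.

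Chains that assemble together kept their proportions to different degrees. The TPM ratio of Col1a1 to Col1a2, the chains of the type I heterotrimer, was 1.49 and 1.44 with shControl and 1.47 and 1.47 with shPum2, a narrow range beside the folds of 4.73 (Col1a1) and 4.75 (Col1a2) between the highest and lowest library. Col3a1 over Col1a1 was 1.63 and 1.52 with shControl but 1.98 and 1.51 with shPum2. Col5a1 over Col1a1 went the other way, at 0.269 and 0.371 with shControl and 0.212 and 0.4 with shPum2. Type V was thus lowest relative to type I where the level of type I was highest. Col5a3 over Col5a1 was 0.839 and 1.03 with shControl and 0.598 and 1.12 with shPum2.

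By class, summed CPM of replicate 1 over replicate 2 in shControl and shPum2 was 1.81 and 4.48 for the 8 matched fibrillar chains. It was 1.99 and 4.21 for the 2 matched type IV chains, 2.77 and 5 for Col15a1 with Col18a1, and 1.79 and 3.04 for the 4 fibril-associated chains. The type IV sum was nearly all Col4a1, as Col4a4 had 0 to 4 counts a somatic library. Most of the Col15a1 with Col18a1 sum was Col18a1. Among the fibril-associated chains the shPum2 fold was 3.24 for Col14a1 and 3.51 for Col16a1. It was 1.07 for Col9a2 and 0.304 for Col9a1, the latter on 1 to 7 counts a somatic library. The 2 transmembrane collagens (Col13a1, Col23a1) had 2.35 and 7.42 and the 2 small proteoglycans 2.61 and 7.27. The class sums therefore all had the larger fold in shPum2, with the glycoproteins (1.99 and 4.81) near the fibrillar chains.

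The second replicates, which were near each other for most members, departed in a few. The CPM of shPum2 replicate 2 over shControl replicate 2 had a median of 0.976 over the 31 members. It was below 0.6 for 5 (16.1%), against 2.02% of all genes. Outside the set it was below 0.6 for 2 of 9 fibroblast and mesenchyme markers and 3 of 39 other matrix genes. The same held for 2 of 15 matrix proteases and inhibitors and 1 of 8 mural markers, and for 0 genes of the other lists described below. The intervals given here are 95% exact intervals of counting error with 1 library a side. Col13a1, a transmembrane collagen of cell adhesion sites, was at 3.28 and 0.426 CPM, a ratio of 0.13 (0.0622 to 0.246). Vitronectin (Vtn), an adhesive protein of serum and matrix, had 0.365 (0.274 to 0.483), and Islr, a mesenchymal cell surface protein, had 0.505 (0.406 to 0.626). Fibulin 1 (Fbln1), a protein of elastic fibres and basement membranes, had 0.538 (0.447 to 0.646) and Col23a1 0.571 (0.452 to 0.719). On the other side Col14a1, a fibril-associated chain, had 1.99 (1.33 to 3.02). For these 5 low members the first replicates gave ratios near 1 for Col13a1 (0.964) and Vtn (0.99). The ratios were above 1 for Islr (1.44), Fbln1 (1.74) and Col23a1 (1.62). Ratios below 0.6 were thus found in the second replicates only, with shPum2 replicate 2 the lowest somatic library for each of the 5.

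Several gene lists outside the set moved with these libraries. The other fibroblast and mesenchyme markers summed to 93.1 and 43.5 CPM under shControl against 193 and 44.4 CPM under shPum2, and all 9 with a mean of at least 10 counts had the members' order. Macrophage and blood markers (10 matched, none at 0 in soma) summed to 124 and 76.6 CPM under shControl against 280 and 68.9 CPM under shPum2. Markers of dividing cells summed to 48.3 and 27.5 CPM under shControl against 116 and 27.6 CPM under shPum2. Schwann and satellite glia markers summed to 23.1 and 16.7 CPM under shControl against 46.2 and 22.5 CPM under shPum2. Endothelial markers had folds of replicate 1 over replicate 2 of 1.74 and 2.21, and mural markers 2.11 and 3.2. Among genes with a mean of at least 10 counts, the members' order held for 9 of 9 macrophage and 8 of 9 dividing-cell markers. It held for 4 of 8 glial, 2 of 6 endothelial and 4 of 8 mural markers, against 26.8% of all genes. Neuronal markers went the other way in shPum2, with a fold of replicate 1 over replicate 2 of 0.864 against 0.997 in shControl. In bulk samples, fewer cells of a type and less RNA per cell cannot be told apart, and the part of these cells in the members' levels was not tested.

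**Figure D3:**
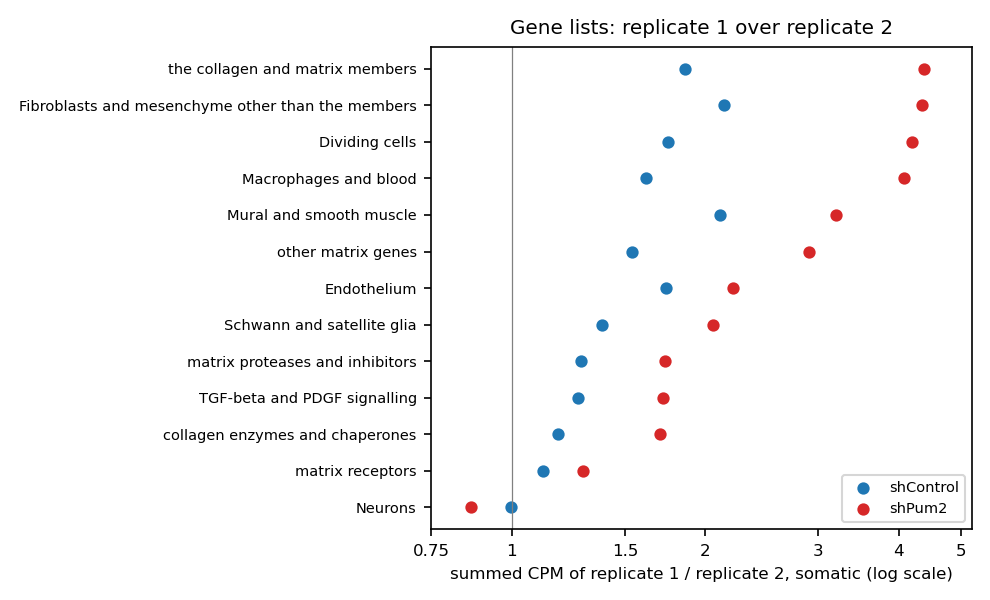
Fold of replicate 1 over replicate 2 in summed CPM (log axis) for the members and each other gene list, in somatic shControl and somatic shPum2, 1 point per hairpin. The members, the other fibroblast markers, macrophage markers and dividing-cell markers lie above 4 in shPum2, and neuronal markers lie at 0.864.

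Summed folds were smaller among pathway genes outside the set. The members' order held for 20 of 26 collagen enzymes and chaperones and 17 of 23 TGF-beta and PDGF signalling genes. It held for 28 of 39 other matrix genes, 11 of 18 matrix receptors and 7 of 15 proteases and inhibitors, against 26.8% of all genes. In shPum2, 44.4% to 74.4% of each list had a replicate fold above 2, against 12.3% of all genes and 80.6% of the members. These shares cover genes with a mean of at least 10 somatic counts. Collagen-modifying enzymes and chaperones (27 of 34 matched) had summed folds of replicate 1 over replicate 2 of 1.18 in shControl and 1.7 in shPum2. Within this list Serpinh1, the collagen chaperone Hsp47, was at 124 and 59.5 CPM under shControl against 289 and 62.4 CPM under shPum2, while P4hb, a subunit of prolyl 4-hydroxylase that also acts on other proteins, was at 438 and 439 CPM and at 535 and 410 CPM. Serpinh1 had the order of the type I chains and P4hb varied little. Matrix proteases and their inhibitors (15 of 16 matched) had 1.28 and 1.73, TGF-beta and PDGF signalling genes (23 of 23) 1.27 and 1.72, matrix receptors (19 of 25) 1.12 and 1.29, and other matrix genes (42 of 50) 1.54 and 2.9. Biglycan (Bgn), a proteoglycan related to decorin, stood at 189 and 90.3 CPM under shControl against 426 and 92.6 CPM under shPum2.

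The question of the hairpin comparison in soma is whether the members differed between shPum2 and shControl beyond this spread. None of the 31 members tested passed an adjusted p of 0.05 in edgeR's quasi-likelihood test, where 0.0081% of 12346 genes did, and none had an unadjusted p below 0.05, where 74 genes did. DESeq2 called none of the members either, with 1 at an unadjusted p below 0.05. The log2 difference was above 0 for 28 of 31, against 52.7% of all genes, and its median was 0.60 against 0.01 over all genes (range -0.48 to 1.41). Without shPum2 replicate 1 the median was -0.50, with 27 of 31 below 0, and without shPum2 replicate 2 it was 1.37, with all 31 above 0. The sign of the difference thus turned on which shPum2 library was kept.

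For the 8 most abundant members the log2 differences were 1.16 (SE 0.87) for Col3a1, 0.98 (SE 0.69) for Sparc, 0.91 (SE 0.75) for Col1a1, 0.91 (SE 0.74) for Col1a2, 1.18 (SE 0.86) for Fn1, 0.69 (SE 0.71) for Col4a1, 0.52 (SE 0.52) for Col6a2 and 0.85 (SE 0.86) for Col18a1. Every adjusted p was 0.9997 (edgeR quasi-likelihood). Without shPum2 replicate 1 all 8 were below 0, between -0.70 for Col18a1 and -0.32 for Sparc. None of the differences with all 4 libraries reached 2 times its SE.

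Col5a3, a fibrillar chain of type V, was the only one of the 31 tested members whose somatic hairpin groups did not overlap. It was at 197 and 173 CPM under shControl against 264 and 199 CPM under shPum2, so both shPum2 libraries were above both shControl libraries, narrowly for replicate 2. Groups of 2 that do not overlap in this direction occurred for 11.5% of all genes, and 1 of 31 members is below that share. Its log2 difference was 0.31 (SE 0.14), with the smallest unadjusted p among the members (edgeR quasi-likelihood, adjusted p = 0.9997). It stayed above 0 with any 1 library left out (0.13 to 0.47). The next smallest p belonged to Col14a1 (log2 difference 1.22, SE 0.72), Col8a1, of the network in endothelial and corneal matrix (0.98, SE 0.62), and Col11a1, a minor fibrillar chain (0.87, SE 0.59), all at the same adjusted p in edgeR. Without shPum2 replicate 1 Col14a1 was at 0.20, and without shControl replicate 1 at 2.04.

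**Figure D4:**
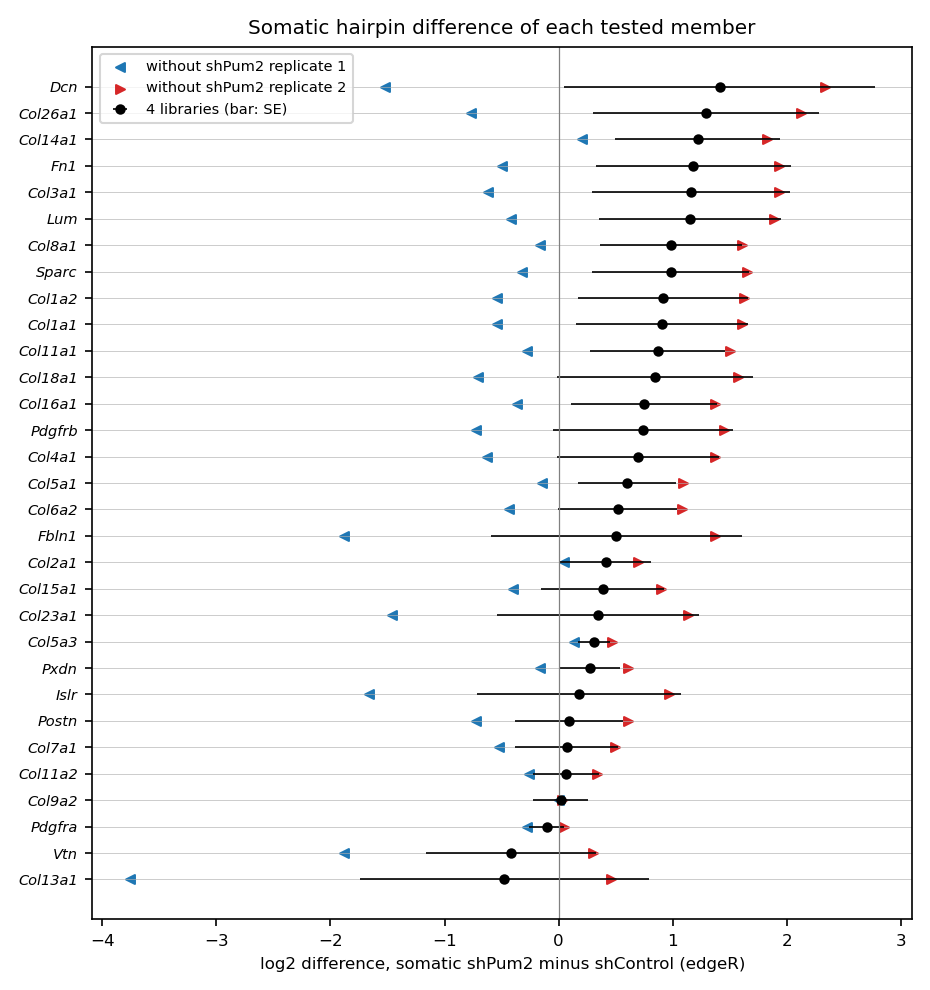
Log2 difference of somatic shPum2 minus shControl (edgeR) for each tested member, with its SE as a bar, and the same difference without shPum2 replicate 1 or without shPum2 replicate 2. The values without replicate 1 lie left of 0 for 27 of 31 members and those without replicate 2 lie right of 0 for all 31.

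The log2 fold changes in the authors' deposited somatic table were closer to 0 than those above. Whether they had been shrunken toward 0 is not given in the sources used here, so their sizes are not compared with the differences from counts. Of the 38 members with a value in it, 32 had a log2 fold change above 0 and 6 below, with a median of 0.04 and a range from -0.05 to 0.22, and none had an adjusted p below 0.05. The share of all genes below 0.05 in that table was not counted here. The table's smallest unadjusted p among the members was that of Col5a3, with a log2 fold change of 0.22 in the authors' deposited table. The table also held the 5 members without a matched transcript. Col5a2, the second main chain of type V, had a log2 fold change of 0.04 at a mean normalised signal of 3972 in the authors' deposited table. Col27a1, Col17a1, Col6a4 and Col4a3 had log2 fold changes of 0.07, 0.01, -0.00489 and -0.01 in that authors' deposited table, at mean signals of 118, 3.83, 16.7 and 9.87.

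In the axonal compartment fewer members were present. They made up 0.0775% and 0.0547% of counts in the shControl libraries and 0.127% and 0.0347% in the shPum2 libraries. At least 10 counts were found for 17 and 18 of the 33 matched members with shControl and for 21 and 12 with shPum2, and 7 to 13 members were at 0 in a library. The low library was shPum2 replicate 2 by all 3 measures.

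Sparc was the steady exception in CPM, a scale that leaves out the TMM scaling factors of the axonal test. Those factors were 0.944 and 0.977 for shControl and 1.25 and 0.867 for shPum2, so its steadiness holds for CPM only. Sparc stood at 173 and 208 CPM in the axonal shControl libraries and at 170 and 175 CPM in the axonal shPum2 libraries. The highest of the 4 was 1.22 times the lowest, whereas 678 genes with a mean of 100 to 300 CPM in axons had a median fold of 2.21, and 2.51% of them had a fold no larger than that of Sparc. The sum of the other members was lowest in shPum2 replicate 2, and Sparc made up 22.3% and 38% of the members' axonal counts with shControl and 13.4% and 50.5% with shPum2. In soma the same gene had spanned 211 to 965 CPM.

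The fibrillar collagens varied widely between axonal replicates. Col3a1 was at 122 and 107 CPM under shControl against 450 and 36.1 CPM under shPum2. Col1a1 was at 88.1 and 46.7 CPM under shControl against 136 and 9.18 CPM under shPum2. Col1a2 was at 37.4 and 4.43 CPM under shControl against 37.9 and 4.53 CPM under shPum2. For Col3a1 and Col1a1 the highest and the lowest library were both shPum2 libraries, and Col1a2 was split by replicate number instead. Col6a2 was at 53.7 and 52 CPM under shControl, at 60.5 CPM in shPum2 replicate 1 and at 0.62 CPM in shPum2 replicate 2. Col5a3 had 59 and 6.65 CPM under shControl against 55.8 and 0.496 CPM under shPum2.

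Other cell types' markers also differed between the axonal libraries. Macrophage and blood markers summed to 1427 and 678 CPM under shControl and to 1859 and 65.2 CPM under shPum2, with Ptprc at 0 in the last. The members without Sparc summed to 602 and 339 CPM under shControl against 1097 and 172 CPM under shPum2, the same order of libraries. The other fibroblast and mesenchyme markers did not have that order, at 9.2 and 13.7 CPM under shControl against 5.63 and 5.71 CPM under shPum2. Glial markers were at 22.6 and 139 CPM under shControl against 17.3 and 63.2 CPM under shPum2, highest in the second replicates. The part of such cells in the axonal values was not tested.

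**Figure D5:**
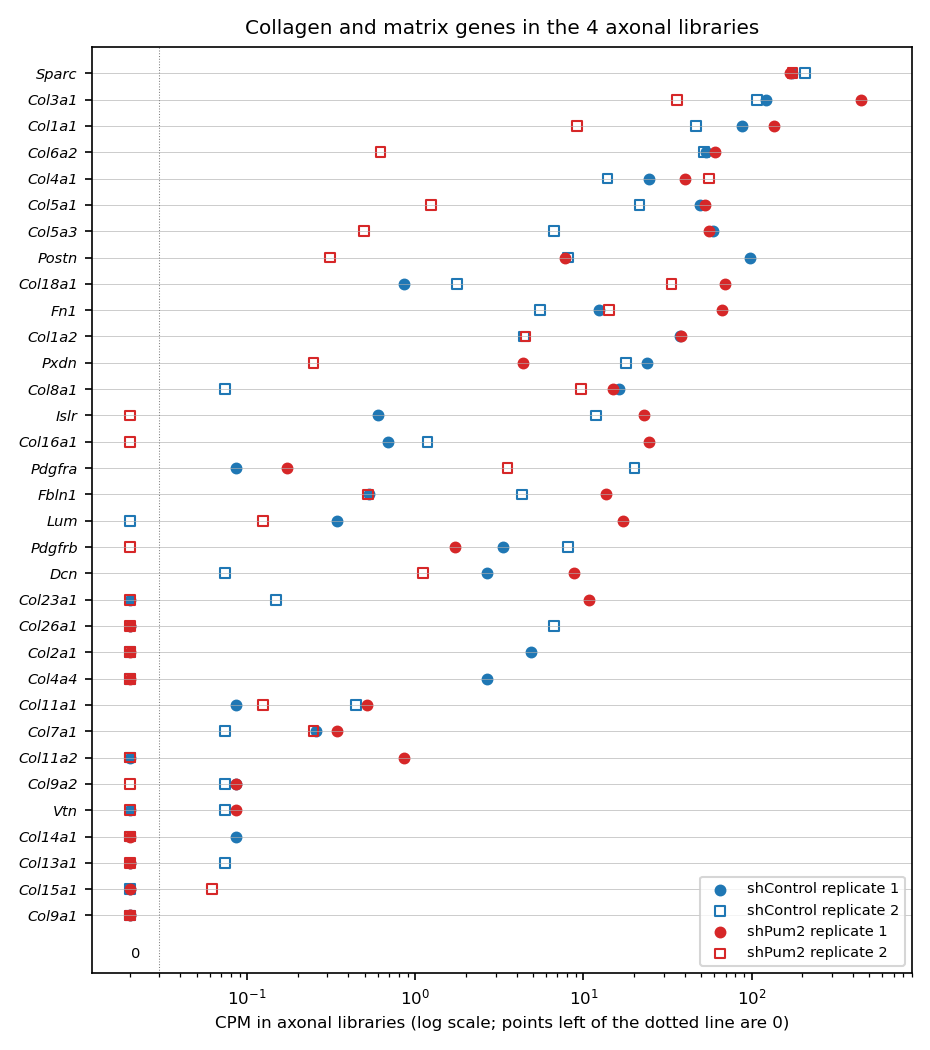
CPM (log axis) of each matched member in the 4 axonal libraries, 1 point per library, with values of 0 drawn left of the dotted line; colour gives the hairpin and symbol the replicate. The 4 Sparc points nearly coincide, Col18a1 has both shPum2 libraries to the right of both shControl libraries, and Postn, Pxdn and Pdgfrb have them to the left.

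The test of shPum2 against shControl in axons covered 19 members, and edgeR's quasi-likelihood test called none of them at an adjusted p of 0.05, with 0 of 8517 genes called (0%). At an unadjusted p below 0.05 stood 1 member and 257 genes. The median log2 difference of the members was -0.23 (9 above and 10 below 0, range -4.07 to 5.10) beside -0.05 over all genes. Scaling by total counts gave a median of 0.11 with 11 above 0, so no direction of the members as a group is given. The hairpin groups did not overlap for 3 of 19 members in the higher direction (15.8% of all genes) and for 3 in the lower (12%). Both counts are near the share of all genes.

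Col18a1, a basement membrane collagen with heparan sulphate chains, had the smallest axonal p. It was at 0.856 and 1.77 CPM in the axonal shControl libraries and at 69.2 and 33.4 CPM in the axonal shPum2 libraries. Both shPum2 libraries were thus far above both shControl libraries. Its log2 difference was 5.10 (SE 1.81; edgeR quasi-likelihood, adjusted p = 0.9998). DESeq2, which called 1.84% of all genes in axons, gave it an adjusted p of 0.01349 and called no other member. The authors' deposited axonal table gave it a log2 fold change of 4.60 and an adjusted p of 0.0209. It was the only member below 0.05 there, though not all of the 34 with a fold change had an adjusted p. The share of all genes below 0.05 in that deposited table was not counted here, so this call has no background beside it. With any 1 axonal library left out its log2 difference lay between 4.72 and 5.67. In soma the same gene was at 248 and 87.9 CPM under shControl against 513 and 100.5 CPM under shPum2, which overlap.

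Fn1 was also above in both axonal shPum2 libraries, at 12.4 and 5.54 CPM under shControl against 66.8 and 14.1 CPM under shPum2 (log2 difference 1.90, SE 1.68), and its difference was 0.81 without shPum2 replicate 1 and up to 2.63 with another library left out. Col4a1 was at 24.6 and 13.9 CPM under shControl against 40 and 56 CPM under shPum2. The members below in both were Postn, at 97.9 and 8.05 CPM under shControl against 7.82 and 0.31 CPM under shPum2, Pxdn and Pdgfrb. The Postn libraries with shControl replicate 2 and shPum2 replicate 1 nearly met, and its log2 difference was -4.07 (SE 2.06), or -1.33 without shControl replicate 1 and -7.23 without shPum2 replicate 1. Pxdn was at 23.9 and 18 CPM under shControl against 4.38 and 0.248 CPM under shPum2 (log2 difference -3.51, SE 2.30, or -6.19 without shPum2 replicate 1). Pdgfrb was at 3.34 and 8.05 CPM under shControl against 1.72 and 0 CPM under shPum2. The adjusted p of Fn1, Postn and Pxdn was 0.9998 (edgeR quasi-likelihood).

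Whether the hairpin difference itself differed between axons and soma was tested over 31 members. edgeR's quasi-likelihood test called none of them and 0 of 12337 genes (0%), with 3 members and 964 genes at an unadjusted p below 0.05 and a smallest adjusted p of 0.489 among the members. DESeq2 called 1 member, Col18a1, where it called 4.91% of all genes. The axonal and somatic comparisons use separate libraries.

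The axonal and somatic shControl libraries were then compared, in a fit of all 8 libraries. Of the 31 members tested, 7 were lower in axons at an adjusted p of 0.05 (edgeR quasi-likelihood), where 18.5% of all genes were, and none was higher, where 9.41% were. The 7 were Col7a1, Col9a2, Col11a2, Col15a1, Col18a1, Fn1 and Vtn. At an unadjusted p below 0.05 stood 11 of the 31 members and 5171 of 12337 genes. The median log2 difference of axon minus soma was -1.96 over the members and -0.76 over all genes, with 25 of 31 members below 0. Scaling by total counts moved the median of all genes to -2.34 and that of the members to -3.53. The members' median thus lay about 1.2 below that of all genes with either scaling, and the share called lower was close to that of all genes. Collagens alone had a median of -2.73, and the other members -0.84, near that of all genes. Without somatic shControl replicate 1 the medians were -1.17 (members) and -0.77 (all genes). Without axonal shControl replicate 2 they were -3.30 and -1.25. Both axonal libraries were below both somatic libraries for 27 of 31 members in CPM, against 68.7% of all genes.

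Among the 7 called genes, Col18a1 fell from 248 and 87.9 CPM in soma to 0.856 and 1.77 CPM in axons (log2 difference -5.40, SE 1.06, edgeR quasi-likelihood adjusted p = 0.01893). Fn1 fell from 681 and 305 CPM to 12.4 and 5.54 CPM (log2 difference -4.17, SE 1.06, edgeR adjusted p = 0.03088). Col7a1, the chain of anchoring fibrils, fell from 30.3 and 16 CPM to 0.257 and 0.0739 CPM (log2 difference -5.51, SE 1.30, edgeR adjusted p = 0.02501), on 4 axonal counts. In each of these 3 the axonal libraries lay far below the somatic ones.

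For the other 4 the axonal counts were fewer still, at 2 or below. Col9a2 had 2 counts over both axonal shControl libraries and 171 over both somatic ones, a CPM ratio of 54 of soma over axon (95% exact counting interval 14.7 to 450; edgeR adjusted p = 0.02875). Vtn had 1 axonal and 402 somatic counts, a ratio of 254 (45.3 to 1.01e+04; edgeR adjusted p = 0.03826). Col11a2, a minor fibrillar chain, and Col15a1, a basement membrane chain related to Col18a1, had 0 axonal counts. Set against 3 counts for the whole axonal group, with the TMM scaling of the test, Col11a2 was at least 30.5-fold lower in axons (edgeR adjusted p = 0.04894) and Col15a1 at least 16.6-fold lower (edgeR adjusted p = 0.02754), or at least 90.8-fold and 49.5-fold lower on the CPM scale. With TMM scaling the ratios of Col9a2 and Vtn were 18.1 and 85.3. With Col11a2 and Col15a1 at their TMM bounds the members' median log2 difference was again -1.96. These intervals and floors cover counting error only.

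Of the 8 most abundant somatic members, Fn1 and Col18a1 were among the calls and the others were not. The log2 difference of axon minus soma was -1.24 (SE 1.09, edgeR adjusted p = 0.4332) for Col3a1, -1.63 (SE 1.12, edgeR adjusted p = 0.3171) for Col1a1 and -2.35 (SE 1.29, edgeR adjusted p = 0.218) for Col1a2. Col4a1 had -2.44 (SE 0.83, edgeR adjusted p = 0.0704) and Col6a2 -0.15 (SE 1.43, edgeR adjusted p = 0.947). Sparc had 0.94 (SE 0.67, edgeR adjusted p = 0.3356), or -0.65 when scaled by total counts, and its somatic over axonal ratio in CPM over each group was 1.48 (1.43 to 1.53, counting error only), beside 9.14 (8.7 to 9.61) for Col1a1 and 53.1 (46.4 to 60.9) for Fn1. The sign for Sparc thus depended on the scaling.

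The calls depended on single libraries. Without either somatic shControl library no member was called, nor any other gene (0 of 12705 and 0 of 12696). Without axonal shControl replicate 1 there were 5 calls among members, where 36.7% of all genes were called, and without replicate 2 there were 4, where 27.6% were, of which Col7a1 was in both and 1 was in the higher direction (Col4a4, with 31 axonal counts, all in shControl replicate 1). In the shPum2 libraries the same contrast called 7 members lower (Col7a1, Col9a2, Col11a1, Col14a1, Col15a1, Vtn and Pxdn), where 16.2% of all genes were. Col18a1 was not among them (log2 difference -1.10, edgeR adjusted p = 0.4307), with its axonal shPum2 levels of 69.2 and 33.4 CPM. Col7a1, Col9a2, Col15a1 and Vtn were called with either hairpin.

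Of the pathway lists outside the set, none had a gene called between the hairpins in soma or in axons. Between axonal and somatic shControl libraries, the collagen enzymes and chaperones had 1 of 26 tested genes called higher and none lower. This was Ppib, a peptidyl-prolyl isomerase of the collagen prolyl 3-hydroxylase complex, at 154 and 176 CPM in axons and 156 and 143 CPM in soma, so that its CPM overlapped and the call rests on the TMM scaling. Matrix receptors had 1 higher and 1 lower of 18. Matrix proteases and inhibitors had 1 of 12 lower, Mmp15. TGF-beta and PDGF signalling genes had 6 of 23 lower and none higher. The other matrix genes had 11 of 39 lower and 2 higher, with a median of -3.08 beside -0.76 over all genes. Of all genes in this contrast, 18.5% were called lower and 9.41% higher.

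The marker lists of other cell types lay on different sides of 0 between compartments, with TMM scaling. Macrophage and blood markers had 5 of 10 called higher in axons and none lower, with a median log2 difference of 4.90. Glial markers had 1 of 8 higher and 1 lower, with a median of 2.80. The other fibroblast and mesenchyme markers had 1 of 9 lower and none higher, with a median of -2.03, close to the -1.96 of the members. Endothelial markers had 2 of 6 lower, with a median of -4.24. These counts stand beside 18.5% of all genes called lower and 9.41% called higher. The part of these cells in the members' differences was not tested.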

How the data were processed

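RNA of 8 libraries was analysed, 2 in each of 4 groups assigned from the titles. The authors' deposited file of each library gives estimated counts and TPM for 18321 RefSeq transcripts, with transcript lengths, per the file headers. kallisto, DESeq2 and Rnor_6.0 are named in the submitters' processing notes, and tool versions are not given in the sources used here. The authors' deposited comparison tables list for each gene the mean signal after normalisation, the log2 fold change of shPum2 over shControl and its error, a test score, and p-values.

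Transcripts were given symbols from RefSeq (GRCr8), whose coordinates served only for the printed promoters: 17367 of 18321 (94.8%) matched. Estimated counts were summed per gene and rounded. CPM is a count scaled to a library total of 1000000. Testing used edgeR 4.0.16 in R 4.3.3 (quasi-likelihood test, TMM, expression filter, Benjamini-Hochberg adjustment over all genes tested, threshold 0.05). The hairpin fits held the 4 libraries of a compartment, and the compartment and interaction contrasts came from a fit of all 8 with 1 spread per gene. Scripts were tested on simulated data. Test values are printed for the 8 members with the highest somatic TPM, for members past the threshold and for the 4 smallest p in each hairpin comparison.

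Members, gene lists and motifs were chosen with earlier results of these data known. Alternatives were DESeq2 1.42.0 and its size factors, scaling by total counts, no expression filter, the replicate number as a block, all 8 libraries in a single fit, a threshold of 0.1, collagens or other members alone, and each library left out. kallisto divides reads shared by similar transcripts, so values of close paralogues are estimates.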

Additional observations from a re-analysis of the deposited data

How the results depend on the processing

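With 2 libraries a group, the errors rest on 1 pair a group, and axonal members under 3 counts are limited by depth too. In soma no alternative called a member. Leaving out 1 library gave a median of -0.50 to 1.37, and ranges of -0.62 to 1.93 (Col3a1), -0.32 to 1.65 (Sparc), -0.54 to 1.61 (Col1a1), -0.54 to 1.62 (Col1a2), -0.50 to 1.93 (Fn1), -0.63 to 1.37 (Col4a1), -0.44 to 1.08 (Col6a2), -0.70 to 1.76 (Col18a1), -0.17 to 1.61 (Col8a1) and -0.28 to 1.5 (Col11a1), each lowest without shPum2 replicate 1. In axons DESeq2 called 1 member, and leaving out 1 library gave a median of -3.69 to 0.61, lowest without shPum2 replicate 1. The fits at these ends had medians of -0.76 and 0.59 over all genes. The interaction had 1 call with DESeq2. Axon against soma had 11 calls at a threshold of 0.1 (4782 of 12337 genes) and 0 to 5 with a library left out (0 to 36.7% of genes). Its median was -2.73 for collagens, -0.84 for the other members, -3.53 with total counts, -2.78 in the shPum2 libraries and -3.70 to -1.17 with a library left out. The fits with -3.70 and -1.17 had medians of -2.72 and -0.77 over all genes. Col6a2 turned to 0.14 with DESeq2 size factors, 0.14 with DESeq2 and 1.42 with the replicate block, and lay between -0.39 and 0.0679 with a library left out. Sparc turned to -0.65 with total counts and -0.19 in the shPum2 libraries. The replicate block gave a somatic median of 0.45 with 0 calls (11 members and 706 of 12346 genes at an unadjusted p below 0.05) and 0 calls for axon against soma, where none of 12337 genes was called. Same-numbered libraries deviated together in soma (r = 0.707 over 12269 genes) and hardly in axons (r = 0.0812 over 9916 genes), and with 2 pairs the libraries share only a number. The cause of these shifts was not tested. Of the values of single members under the alternatives, 110 of 120 in soma, 39 of 40 in axons and 88 of 130 between compartments kept direction and call. Testing transcripts singly was not run, since each matched member has 1 transcript.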
